A study of Mus musculus with 10 samples.

Results

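Mouse bone marrow-derived macrophages that had been primed with IL-4 and rested were given IFNG for 3 h, and their chromatin loops were compared with those of primed, rested cells that received no IFNG. The locus with the highest ratio of loops between these states was the guanylate-binding protein (Gbp) cluster of chromosome 3, where 10 loops were called without IFNG and 55 with it. Many of these loops lie side by side, and 4 and 7 remained after touching loops were merged. All cells came from the bone marrow of wild type female C57BL/6 mice of 2 to 3 months of age and were differentiated with M-CSF at 20 ng/ml, and cytokines were first given on day 6. The preIL4 cells received IL-4 at 20 ng/ml for 24 h, were washed and were rested for 24 h. The preIL4IFNG cells were treated in the same way and then received IFNG at 20 ng/ml for 3 h, so both groups carried the same priming. These groups made up 4 of the 10 Hi-C samples of the series, 2 replicates each. The labels do not say whether a replicate came from 1 animal or several. The same IFNG treatment without priming, IFNG against untreated CTR cells, is given beside the primed comparison, and cells taken at the end of the IL-4 treatment (IL4) are given as a further reference.

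Hi-C joins DNA segments that lie near each other in the nucleus and counts the joined pairs. Each group was represented by 1 loop list for both replicates together, in which a loop is a pair of 10 kb bins of 1 chromosome with a whole number of contacts. Contacts at bin pairs that were not called are not in the lists. The preIL4 list held 67728 loops and the preIL4IFNG list 67000, against 53424 in CTR and 55012 in IFNG, and the median loop held 32 contacts in every list. As no replicate values were analysed here, no difference in this report has a replicate check and no p-value is given. Intervals are 95% intervals for counting error only. They treat loops as independent of each other, which touching bin pairs are not, and are therefore too narrow. A loop called in more cells and a loop with more contacts per cell cannot be told apart.

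IFNG binds a receptor of the chains IFNGR1 and IFNGR2, which signals through the kinases JAK1 and JAK2. The response runs through GAS elements in promoters, among them that of Irf1, and IRF1 and related factors bind ISRE elements of further targets. In macrophages these targets include GTPases of cell-autonomous immunity such as the guanylate-binding proteins, antiviral proteins, chemokines and the machinery of antigen presentation. IL-4 acts through STAT6, which binds a palindrome with a spacer longer by 1 base, and sets up an alternative state with its own genes.

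The promoters of the chromosome 3 Gbp genes, of Samhd1 and of Edn1 are shown because of their ratios of loops between the primed states. These were the highest among the guanylate-binding proteins, the antiviral genes and the genes the study follows. For 7 genes the 250 bases before the RefSeq start are printed 5′ to 3′ on the coding strand (GRCm38.p6), with motif matches in capitals. The motifs searched on both strands were GAS (TTCNNNGAA), a STAT6-type site (TTCNNNNGAA) and an ISRE-like site (GAAANNGAAA). A match is only a stretch of these letters.
Gbp5 (chr3:142496684-142496933, plus strand): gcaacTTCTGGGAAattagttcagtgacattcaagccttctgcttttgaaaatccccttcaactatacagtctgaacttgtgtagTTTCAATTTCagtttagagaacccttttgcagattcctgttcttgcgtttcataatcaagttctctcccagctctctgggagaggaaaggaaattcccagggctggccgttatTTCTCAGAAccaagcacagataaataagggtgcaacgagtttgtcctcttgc
Gbp7 (chr3:142530086-142530335, plus strand): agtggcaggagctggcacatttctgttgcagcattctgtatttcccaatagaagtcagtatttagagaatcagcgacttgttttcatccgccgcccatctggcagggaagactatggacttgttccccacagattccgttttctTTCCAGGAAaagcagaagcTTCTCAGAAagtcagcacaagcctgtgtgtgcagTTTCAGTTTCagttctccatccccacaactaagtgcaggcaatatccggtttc
Gbp3 (chr3:142559794-142560043, plus strand): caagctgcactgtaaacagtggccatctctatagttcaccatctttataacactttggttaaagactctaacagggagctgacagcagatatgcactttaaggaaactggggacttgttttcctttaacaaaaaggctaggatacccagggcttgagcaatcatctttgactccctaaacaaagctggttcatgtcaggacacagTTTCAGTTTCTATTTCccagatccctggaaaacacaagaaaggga
Gbp2b (chr3:142594597-142594846, plus strand): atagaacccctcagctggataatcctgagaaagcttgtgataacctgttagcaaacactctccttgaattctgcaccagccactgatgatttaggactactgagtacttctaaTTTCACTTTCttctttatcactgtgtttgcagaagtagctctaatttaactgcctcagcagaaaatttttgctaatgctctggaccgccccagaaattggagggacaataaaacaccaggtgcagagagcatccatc
Gbp2 (chr3:142620413-142620662, plus strand): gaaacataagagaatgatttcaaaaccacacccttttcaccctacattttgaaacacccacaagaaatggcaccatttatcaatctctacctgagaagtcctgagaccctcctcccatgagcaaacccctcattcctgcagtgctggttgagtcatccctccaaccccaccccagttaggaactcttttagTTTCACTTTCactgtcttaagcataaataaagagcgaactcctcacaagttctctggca
Samhd1 (chr2:157135097-157135346, minus strand): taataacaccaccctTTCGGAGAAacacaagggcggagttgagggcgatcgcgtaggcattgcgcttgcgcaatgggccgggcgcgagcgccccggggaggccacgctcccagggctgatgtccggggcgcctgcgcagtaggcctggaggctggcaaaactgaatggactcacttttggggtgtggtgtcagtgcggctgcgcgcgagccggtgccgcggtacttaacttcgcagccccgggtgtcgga
Edn1 (chr13:42301226-42301475, plus strand): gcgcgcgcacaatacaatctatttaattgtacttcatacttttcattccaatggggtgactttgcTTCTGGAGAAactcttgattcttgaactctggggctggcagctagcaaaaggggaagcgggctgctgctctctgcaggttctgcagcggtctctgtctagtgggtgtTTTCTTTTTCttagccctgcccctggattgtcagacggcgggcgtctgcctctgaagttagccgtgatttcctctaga

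All 5 Gbp promoters held an ISRE-like match, and Gbp5 and Gbp7 each held 2 GAS matches as well. The ISRE-like letters were found in 3.44% of the 32851 promoters of 300 bases in the RefSeq table and GAS in 8.30%. Among 108 IFNG-response genes with a promoter in the table, 34.3% held an ISRE-like match and 21.3% a GAS match. The Samhd1 promoter held 1 GAS match 235 bases before the start. Edn1, a gene of the IL-4-induced list, held a STAT6-type match 185 bases before the start and an ISRE-like match 78 bases before it. The promoter of Gbp5 lies 2956 bases from the GENCODE start that was used for counting loops, while those of the other 4 Gbp genes lie within 61 bases of it.

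The Gbp genes of chromosome 3 encode large GTPases that assemble on the vacuoles of intracellular pathogens and are among the most strongly IFNG-induced genes of macrophages. Loops with an anchor within 100 kb of the transcription start site (TSS) were counted for each gene and scaled by the length of the list. A pseudocount of 1 loop was then added, and the counts were compared as log2 ratios of preIL4IFNG over preIL4. Intervals of loop ratios were computed without the pseudocount, so they belong to the ratio without it and not to the one printed. Gbp2 (chr3:142620602-142638008) had 10 loops in preIL4 and 53 in preIL4IFNG, a log2 ratio of 2.31 (interval 1.43 to 3.56), and 11 in CTR and 37 in IFNG. Gbp3 (chr3:142560026-142573209) had 12 and 61 loops, a log2 ratio of 2.27 (1.45 to 3.39). The values of both IFNG lists lay well above those of CTR, IL4 and preIL4, which ran from 7 to 12 for these genes. Gbp2b had 10 and 50 loops (2.23), Gbp7 16 and 67 (2.02) and Gbp5 16 and 66 (1.99). Without priming the 5 log2 ratios ran from 1.55 for Gbp2b to 1.72 for Gbp3, each below the value in primed cells, a difference that was not tested.

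Of the 11 guanylate-binding proteins listed, 10 matched the annotation and 5 had a mean of at least 10 loops over the pair of lists, the minimum for a gene to be compared. This mean uses the same lists as the ratio, so a gene below 10 loops in 1 list passed only through the other. All 5 Gbp genes compared had at least 2-fold more loops in preIL4IFNG, against 1.38% of the 10370 genes compared. Their windows overlap, so they are largely 1 set of loops counted 5 times. The second Gbp cluster, on chromosome 5, had too few loops: Gbp4, Gbp8 and Gbp9 had 0 loops in preIL4 and 4 in preIL4IFNG each, and Gbp6 had 7 and 6.

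Within the chromosome 3 interval that reaches 100 kb past the 5 genes (chr3:142390001-142740000), 11 loops were called in CTR, 7 in IL4, 10 in preIL4, 39 in IFNG and 55 in preIL4IFNG. Over unlike numbers of called bin pairs, these loops held 313 contacts in preIL4 and 2190 in preIL4IFNG. Their median span was 140 kb in preIL4 and 100 kb in preIL4IFNG. The loops lie side by side: after touching bin pairs were merged, 4 loops remained in preIL4 and 7 in preIL4IFNG, with 3 in CTR and 10 in IFNG. Most of the difference in number was therefore in how many neighbouring bin pairs were called.

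**Figure D1:**
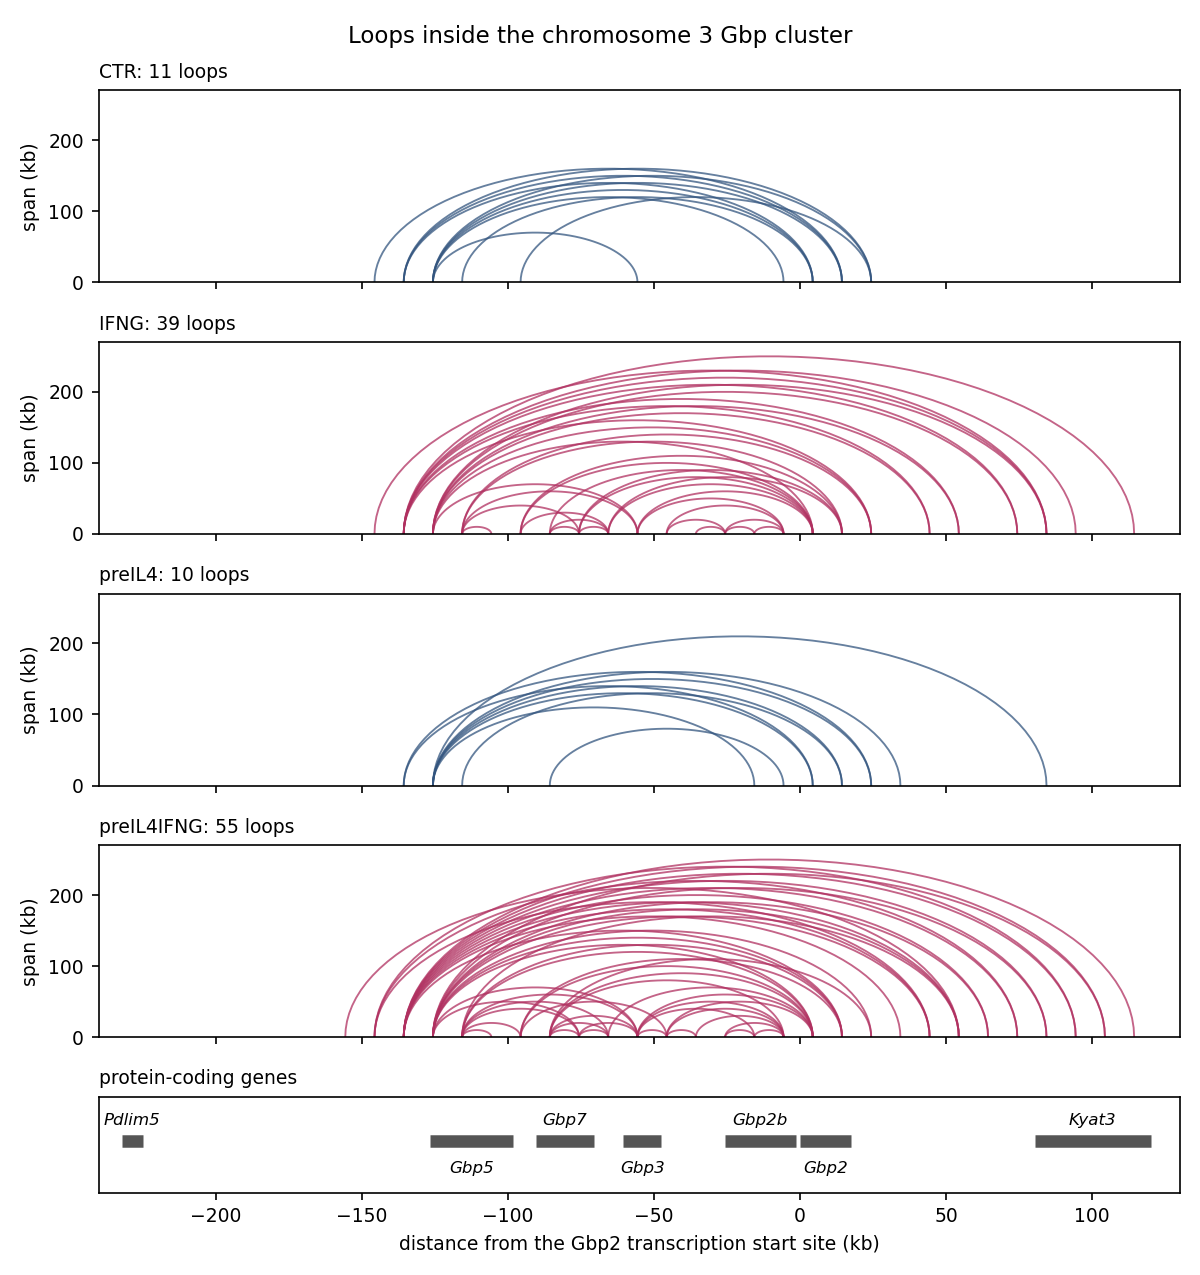
Loops inside the chromosome 3 Gbp interval in the CTR, IFNG, preIL4 and preIL4IFNG lists. Each arc joins the 2 anchors of a loop, the horizontal axis is the distance from the Gbp2 start site in kb, the height of an arc is its span in kb, and the lowest panel gives the protein-coding genes. The 10 and 11 loops of the lists without IFNG mostly start near Gbp5 and end near Gbp2, while the 39 and 55 loops of the IFNG lists also start and end inside the cluster and reach into Kyat3.

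Of the bin pairs of this interval, 6 were called in both primed lists, 49 in preIL4IFNG alone of the pair and 4 in preIL4 alone. The 6 shared pairs held 199 contacts in preIL4 and 174 in preIL4IFNG, with 4 pairs lower and 1 higher, so the pairs called in both lists held no more contacts with IFNG than without it (log2 ratio -0.17, -0.48 to 0.13, after scaling to all shared bin pairs). One of them joined the bin of the Gbp5 start (chr3:142490001-142500000) with a bin just past Gbp2 (chr3:142640001-142650000) and was called in all 5 lists, with 48 contacts in CTR, 46 in IL4, 51 in preIL4, 61 in IFNG and 42 in preIL4IFNG. Of the 49 pairs in preIL4IFNG alone, 25 were also in IFNG and 3 in CTR. Over all, 29 bin pairs were in both IFNG lists, and 24 of these were in neither CTR nor preIL4.

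Anchors were added both at gene starts and in bins without a gene. The bin of the Gbp3 start held 1 anchor in CTR, none in IL4 and preIL4, 4 in IFNG and 8 in preIL4IFNG. The Gbp7 start bin held none in CTR and IL4, 1 in preIL4, 3 in IFNG and 6 in preIL4IFNG. The bin just before Gbp5 (chr3:142480001-142490000), which overlaps no gene, held 3, 2, 2, 7 and 12 anchors in CTR, IL4, preIL4, IFNG and preIL4IFNG. By contrast the Gbp5 start bin was already an anchor of 5 to 6 loops without IFNG, with 7 in IFNG and 10 in preIL4IFNG. The gained loop with the most contacts joined adjacent bins at the start of Gbp2b (chr3:142590001-142610000) and held 125 contacts in IFNG and 128 in preIL4IFNG (exact Poisson interval 107 to 152), with no call in CTR, IL4 or preIL4. These bins were chosen after their values were seen, except for that last loop.

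Gtf2b, which encodes the general transcription factor TFIIB and lies next to this cluster, had the highest log2 ratio of all genes compared. Its log2 ratio was 3.47 with the pseudocount and 4.41 without it (interval 1.77 to 9.78). With 1 loop in preIL4 and 21 in preIL4IFNG, it passed the minimum of 10 only through preIL4IFNG. In CTR it had 0 loops and in IFNG 11. Every one of these loops had an anchor in the Gbp interval, which overlaps the Gtf2b window. Its own start bin held 1 anchor in preIL4IFNG and none in the other lists.

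Genes of the IFNG signalling pathway differed less. None of the 12 compared passed 2-fold in either direction, 10 were higher in preIL4IFNG, and their median log2 ratio was 0.15 beside 0.01 over all genes compared. Over all genes compared 53.6% were higher, 1.38% had at least 2-fold more loops and 0.781% at least 2-fold fewer. Ptpn11, which encodes the phosphatase SHP2, stood highest with 12 loops in preIL4 and 23 in preIL4IFNG (0.90, interval -0.11 to 2.10), and 10 in CTR and 23 in IFNG. Stat2 had 45 and 57 loops (0.35), Ptpn2 20 and 24 (0.27) and Usp18, which restrains interferon receptor signalling, 25 and 29 (0.22). Ifngr1, a receptor chain, stood at 28 and 17 loops (-0.67) and the kinase gene Jak1 at 18 and 9 (-0.91), and both intervals include 0.

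Among interferon regulatory factors, 1 of 8 had at least 2-fold fewer loops in preIL4IFNG (0.781% of all genes compared) and none had 2-fold more (1.38%), with a median log2 ratio of -0.12. That gene was Irf4, which encodes a factor tied to alternative macrophage polarization. Irf4 (chr13:30749226-30766976) had 17 loops in CTR, 21 in IL4, 26 in preIL4, 11 in IFNG and 11 in preIL4IFNG, a log2 ratio of -1.16 (-2.39 to -0.16). Both IFNG lists thus lay below all 3 lists without IFNG. Irf4 missed 2-fold with a window of 250 kb (-0.71) and with a pseudocount of 5 loops (-0.94). The lost loop with the most contacts there ran from the Dusp22 gene to a bin upstream of Irf4 (chr13:30660001-30670000 and chr13:30730001-30740000). It was called in preIL4 only, with 51 contacts. Irf9, which encodes a subunit of an interferon-activated complex, had 36 and 45 loops (0.33), Irf7 53 and 61 (0.21), Irf8 45 and 47 (0.08) and Irf2 55 and 53 (-0.04). Irf2bp2, which encodes a partner of IRF2, had 189 and 147 loops (-0.34).

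Irf1, which encodes a factor that relays the response, had 33 loops in preIL4 and 26 in preIL4IFNG (-0.32, -1.13 to 0.46). At the 13 bin pairs near Irf1 called in both lists, contacts were 724 in preIL4 and 556 in preIL4IFNG, a log2 ratio of -0.36 (-0.52 to -0.20). The bin of the Irf1 start held 3 anchors in CTR, 4 in IL4, 4 in preIL4 and none in either IFNG list. Near Irf1, 10 bin pairs were in CTR and preIL4 and in neither IFNG list, and 4 were the other way round. The interval of the loop number included 0 and that of the contacts at shared pairs did not.

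The interferon-stimulated antiviral genes had the largest number of members past 2-fold. At least 2-fold more loops in preIL4IFNG were held by 6 of 24 and 2-fold fewer by none, 16 were higher, and the median log2 ratio was 0.41 with priming and 0.43 without. Over all genes compared, 1.38% had 2-fold more, 0.781% had 2-fold fewer and 53.6% were higher. Samhd1 (chr2:157097533-157135265), which encodes a nucleotide hydrolase that starves viruses of dNTPs, had 11 loops in CTR, 12 in IL4, 12 in preIL4, 23 in IFNG and 36 in preIL4IFNG (1.52, 0.62 to 2.68). At its 5 shared bin pairs, contacts were lower, with 436 in preIL4 and 365 in preIL4IFNG (-0.24, -0.44 to -0.03). Mx1, a dynamin-like GTPase, had 4, 2, 6, 7 and 16 loops in CTR, IL4, preIL4, IFNG and preIL4IFNG (1.29, 0.0028 to 3.07). Adar, an RNA-editing deaminase, had 31, 39, 26, 39 and 54 loops (1.04, 0.37 to 1.80). In Samhd1, Mx1 and Adar the preIL4IFNG list held the most loops. Adar differed from Samhd1 in that its IFNG value equalled its IL4 value, and its unprimed log2 ratio was 0.28.

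Dtx3l and Parp9, neighbours that encode a ubiquitin ligase and its partner, shared 6 loops in CTR, 6 in IL4, 12 in preIL4, 15 in IFNG and 25 in preIL4IFNG (1.01, 0.03 to 2.20). A loop of adjacent bins at their shared start (chr16:35920001-35940000) held 151 contacts in IFNG and 161 in preIL4IFNG and was in none of the other lists. Oas2, a sensor of double-stranded RNA, had 8 loops in preIL4 and 17 in preIL4IFNG (1.01, -0.19 to 2.52). At the low end of the list stood Trim21 with 14 and 10 loops (-0.43) and Oasl2 with 34 and 25 (-0.41). The 4 Ifit genes compared, whose products bind viral RNA, lay between 0.28 for Ifit2 and 0.84 for Ifit1 and share their windows.

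Chemokine genes induced by IFNG had a median log2 ratio of 0.49 over 8 genes with none past 2-fold, and 6 were higher. Of all genes compared 53.6% were higher, 1.38% had 2-fold more loops and 0.781% 2-fold fewer. Ccl2, which recruits monocytes, had 32 loops in preIL4 and 47 in preIL4IFNG (0.56) and Ccl7 next to it 31 and 45 (0.54). Cxcl9 and Cxcl10, which recruit T cells, each had 11 and 16 loops (0.52), while without priming Cxcl9 had 6 loops in CTR and 21 in IFNG (1.61). At the 6 shared bin pairs near Cxcl9 and Cxcl10, contacts were 310 in preIL4 and 367 in preIL4IFNG (0.26, 0.04 to 0.49). A gained loop between Ppef2 and Art3 across this locus (chr5:92230001-92240000 and chr5:92390001-92400000) held 37 contacts in IFNG and 33 in preIL4IFNG. It was not called at those bins in the other lists, though IL4 had a loop of 22 contacts within 25 kb. Lowest were Ccl5 with 66 and 50 loops (-0.38) and Cxcl16 with 99 and 88 (-0.15).

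All 11 MHC class II genes had more loops in preIL4IFNG, by small ratios, where 53.6% of all genes compared were higher. Their log2 ratios ran from 0.12 for H2-DMb1 to 0.42 for H2-Eb2, with a median of 0.19, and 9 of them lie in 1 cluster of overlapping windows on chromosome 17. H2-Eb2 had 49 loops in CTR, 47 in IL4, 58 in preIL4, 55 in IFNG and 77 in preIL4IFNG. Ciita, the gene of the master activator of MHC class II, had 62 loops in preIL4 and 79 in preIL4IFNG (0.36, -0.13 to 0.87), and 55 in CTR and 77 in IFNG. Cd74, which encodes the invariant chain, had 59 and 70 loops (0.26). All 11 intervals included 0, and none of these genes reached 2-fold. Of all genes compared, 1.38% had 2-fold more loops and 0.781% 2-fold fewer.

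For MHC class I and peptide processing, 10 of 13 genes were higher (53.6% of all genes compared) and the median log2 ratio was 0.11. None passed 2-fold, where 1.38% of all genes had 2-fold more loops and 0.781% 2-fold fewer. Psme2 and Psme1, which encode the proteasome activator PA28, had 34 and 42 loops (0.31) and 26 and 32 loops (0.30). Tapbp stood lowest with 56 and 51 (-0.12). Nlrc5, the activator of MHC class I, had 44 loops in both lists. Yet a loop of adjacent bins near Nlrc5 (chr8:94410001-94430000) held 169 contacts in IFNG and 172 in preIL4IFNG and was in no other list. Equal numbers of loops near a gene thus did not mean the same loops.

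The immunity-related GTPases, which act with the guanylate-binding proteins on pathogen vacuoles, showed no such increase. Of 5 genes compared none passed 2-fold, and their median log2 ratio was 0.01 with priming and -0.44 without. In the primed comparison 1.38% of all genes had 2-fold more loops and 0.781% 2-fold fewer. Tgtp2 had 38 loops in preIL4 and 25 in preIL4IFNG (-0.57), and Ifi47 in the same chromosome 11 cluster 38 and 27 (-0.46). At the 13 shared bin pairs near these genes, contacts were 668 and 530 (-0.31, -0.48 to -0.15). Tgtp1 had 18 and 22 loops (0.29), and Irgm1 and Irgc1 had equal numbers in both lists. A loop from the Irgm1 start to the bin of the Tgtp1 start (chr11:48870001-48880000 and chr11:48990001-49000000) was called in IL4 with 35 contacts, in IFNG with 35 and in preIL4IFNG with 40.

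Of 23 macrophage effector genes of IFNG, 1 had at least 2-fold more loops and none fewer, with 18 higher and a median log2 ratio of 0.26. The shares over all genes compared were 1.38% with 2-fold more, 0.781% with 2-fold fewer and 53.6% higher. The gene past 2-fold was Ly6a, which encodes a GPI-anchored surface protein, with 9 loops in CTR, 3 in IL4, 6 in preIL4, 11 in IFNG and 15 in preIL4IFNG (1.21, -0.11 to 2.99). Slfn2 followed with 14 and 22 loops (0.63), Slfn1 with 24 and 35 (0.54) and Nos2, the inducible nitric oxide synthase, with 56 and 72 (0.37). The 33 shared bin pairs near Nos2 held 1348 and 1487 contacts (0.16, 0.05 to 0.27). Il18bp, with 30 and 23 loops (-0.35), and Aim2, with 14 and 11 (-0.31), stood lowest.

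Taking the 9 lists as 1 set of IFNG-response genes, 147 of 154 matched the annotation and 109 had enough loops. Of these, 12 had at least 2-fold more loops and 1 at least 2-fold fewer, that is 5 Gbp genes, Samhd1, Mx1, Adar, Dtx3l, Parp9, Oas2 and Ly6a against Irf4. There were 82 higher and 27 lower, and the median log2 ratio was 0.21, or 0.20 without the Gbp genes. Over all 10370 genes 53.6% were higher, 1.38% had at least 2-fold more loops and 0.781% at least 2-fold fewer. With windows of 250 kb the 2-fold calls of Samhd1, Mx1, Adar, Dtx3l, Parp9, Oas2 and Irf4 were lost, while those of Ly6a and the Gbp genes were kept. With a pseudocount of 5 loops the calls of Ly6a (0.87), Mx1 (0.94), Adar (0.94), Dtx3l and Parp9 (0.83), Oas2 (0.77) and Irf4 were lost, and those of Samhd1 and the Gbp genes were kept. Merging touching bin pairs lowered the median to 0.087 and left the Gbp genes too few loops to be compared. Without priming the median over the same set was 0.17, with 11 of 107 genes at least 2-fold higher and none lower, where 1.75% and 0.936% of all 9290 genes passed 2-fold.

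**Figure D2:**
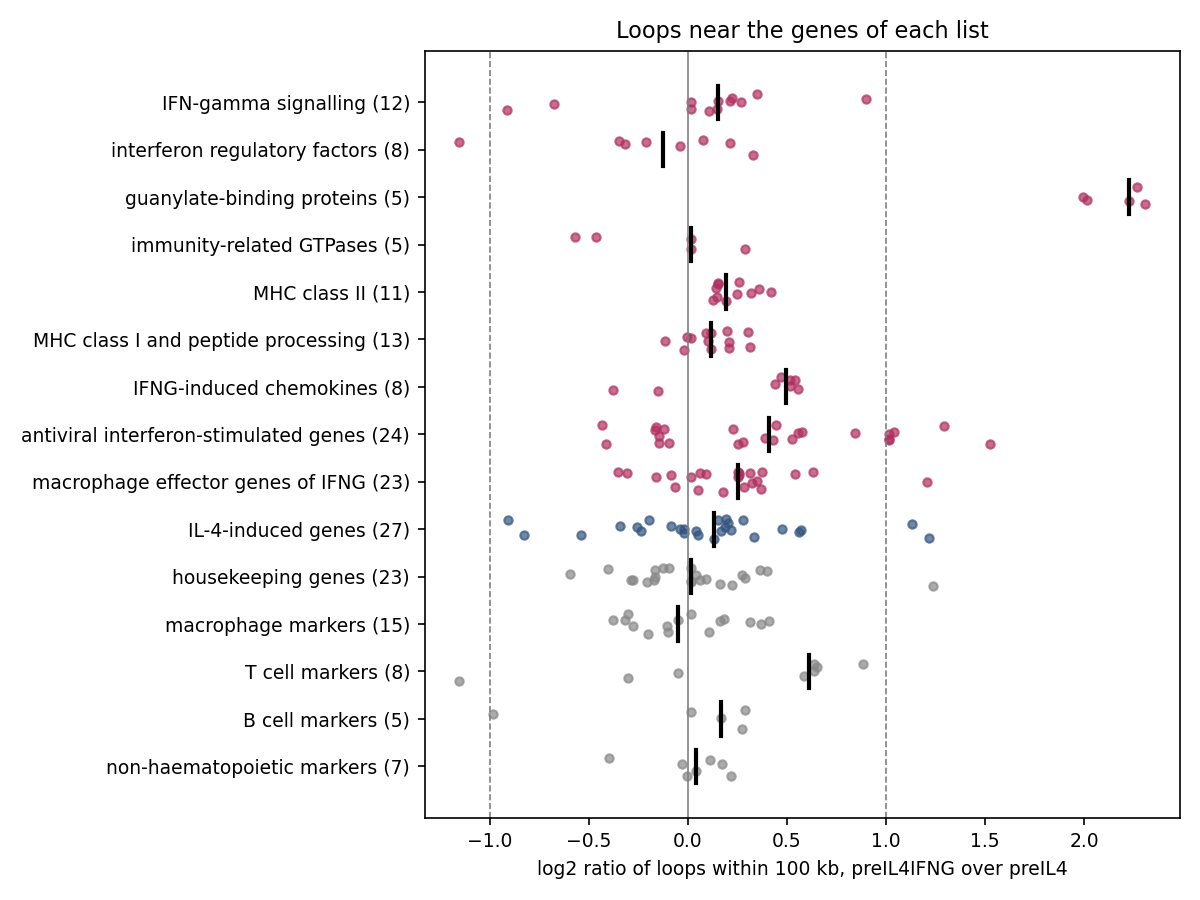
Log2 ratio of loops within 100 kb of each gene, preIL4IFNG over preIL4, for the genes of each list that had at least 10 loops on average. Points are genes, black bars the list medians, the number of genes is in brackets and dashed lines mark 2-fold. The 5 Gbp genes lie at or above 1.99, and the MHC class II genes form a narrow band from 0.12 to 0.42.

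IL-4-induced genes were examined because the cells had been primed with this cytokine. Of 27 compared, 2 had at least 2-fold more loops in preIL4IFNG and none fewer, 16 were higher, and the median log2 ratio was 0.13 with priming and -0.04 without. Beside them, 1.38% of all genes compared had 2-fold more, 0.781% had 2-fold fewer and 53.6% were higher. Flt1, a receptor of vascular endothelial growth factor, had 3 loops in CTR, 22 in IL4, 9 in preIL4, 17 in IFNG and 22 in preIL4IFNG (1.22, 0.13 to 2.61). It passed the minimum of 10 loops only through preIL4IFNG. Edn1, which encodes the precursor of endothelin 1, had 18, 22, 17, 35 and 38 loops (1.13, 0.32 to 2.09). Both missed 2-fold with a pseudocount of 5 loops, at 0.96 and 0.98. For Flt1 the numbers in IL4 and in both IFNG lists thus lay above those in CTR and preIL4, while for Edn1 those in both IFNG lists lay above the other 3. Arg1, the arginase of alternative activation, had 16 and 24 loops (0.57) and Ccl22 12 and 18 (0.56). F10 and F7, neighbours that encode clotting factors, stood lowest, with 35 and 18 loops (-0.91, -1.85 to -0.08) and 33 and 18 (-0.82). Of the 10 genes the study follows that could be compared, Edn1 alone passed 2-fold.

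The labelled cell type cannot be checked from loops as it can from expression, so only loop numbers near marker genes are given. All 15 macrophage markers, such as Csf1r, Spi1 and Adgre1, had loops in both lists, with a median of 43 in preIL4 and 36 in preIL4IFNG, and none passed 2-fold. B cell markers had a median of 12.5 and 6.5 loops and non-haematopoietic markers 10.5 and 10. T cell markers had 34 and 44, near those of macrophage markers, so loop numbers do not separate these cell types. The median log2 ratio of the 8 T cell markers compared was 0.61, above that of the IFNG-response genes, and rests on few windows, with Cd3e, Cd3d and Cd3g overlapping at 38 and 57, 40 and 62, and 40 and 62 loops. Zap70 had 34 and 63 loops (0.89), and Cd28 had 26 and 11 (-1.16) and was at least 2-fold lower. Over all genes compared, 1.38% had at least 2-fold more loops and 0.781% at least 2-fold fewer. Among 23 housekeeping genes the median was 0.01, and 1 was at least 2-fold higher, Ywhaz with 8 and 20 loops. Its call was lost without bins that were empty in 1 list and full in another.

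Across the genome 143 genes had at least 2-fold more loops in preIL4IFNG and 81 at least 2-fold fewer, in 62 and 49 loci of overlapping windows. The quartiles of the log2 ratio over all genes compared were -0.19 and 0.23. After Gtf2b, the locus of Gm10135 and Slc10a4 on chromosome 5 came next, with 2 loops in CTR, 3 in preIL4, 12 in IFNG and 17 in preIL4IFNG (2.18, 0.73 to 4.93). Ptcd2, which encodes a mitochondrial RNA-binding protein, had 3, 7, 14 and 27 loops in the same order (1.82). Rbl1, the gene of the pocket protein p107 beside Samhd1, had 5, 6, 11 and 23 (1.79). In all 4 loci both IFNG lists held more loops than CTR or preIL4. In IL4, Gtf2b had 1 loop, Gm10135 4, Ptcd2 13 and Rbl1 6, so at Ptcd2 the IL4 value lay near the IFNG value.

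Loci with equally high values in both IFNG lists followed. Serpina3j, in a cluster of serine protease inhibitors (chr12:104314553-104320725), had 6 loops in CTR, 9 in preIL4, 28 in IFNG and 32 in preIL4IFNG (1.74, 0.75 to 3.10). Its 6 shared bin pairs held 111 and 144 contacts (0.39, 0.03 to 0.77), one of few named loci with more contacts at loops already present. Tmem56 had 7, 9, 26 and 32 loops (1.74), with 281 and 374 contacts at 8 shared bin pairs (0.43, 0.20 to 0.66). Prdx6, an antioxidant enzyme gene, had 6, 10, 29 and 31 loops (1.56). Snapc1, in a locus with Hif1a, the gene of the hypoxia-inducible factor subunit, had 12, 7, 26 and 25 loops (1.71). Fam3b, next to Mx1, had 4, 5, 7 and 18 loops (1.68, 0.38 to 3.65), so only the primed IFNG list stood apart. With windows of 250 kb, Gm10135 (0.51), Ptcd2 (0.99), Rbl1 (0.79), Fam3b (0.37) and Prdx6 (0.86) missed 2-fold.

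**Figure D3:**
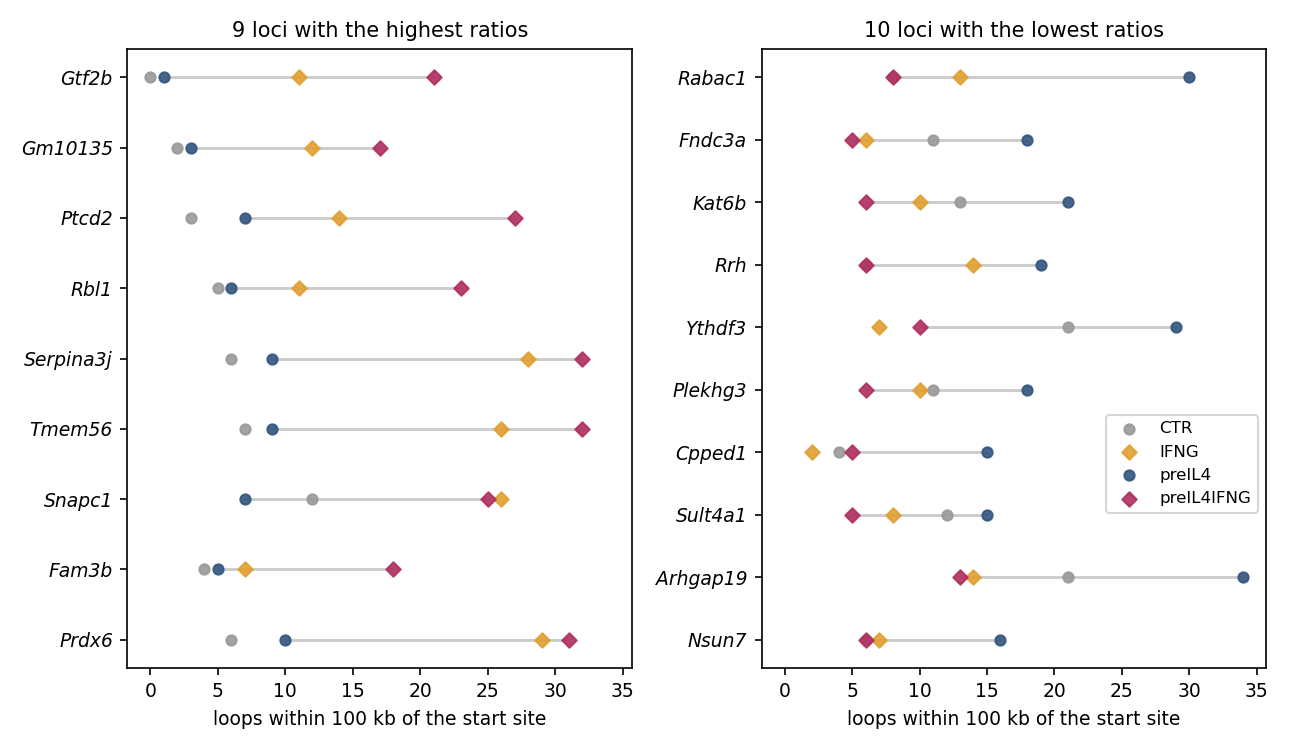
Loops within 100 kb of the start site in the CTR, IFNG, preIL4 and preIL4IFNG lists for the 9 loci with the highest and the 10 with the lowest log2 ratio that are reported here of preIL4IFNG over preIL4. The grey line joins the 2 primed lists and the axis is a number of loops. In the left panel the IFNG value lies to the right of the CTR value at all 9 loci, and in the right panel the preIL4 value is the highest of the 4 at all 10.

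At the low end the unprimed lists differed from locus to locus. Rabac1, which encodes a Rab acceptor, had 8 loops in CTR, 17 in IL4, 30 in preIL4, 13 in IFNG and 8 in preIL4IFNG (-1.77, -3.23 to -0.73), so without priming IFNG stood above its reference. Fndc3a had 11, 16, 18, 6 and 5 loops (-1.65), Kat6b, a histone acetyltransferase gene, 13, 14, 21, 10 and 6 (-1.64), and Ythdf3, a reader of methylated RNA, 21, 17, 29, 7 and 10 (-1.43). Near Fndc3a, Kat6b and Nsun7 no bin pair was called in both primed lists. Ythdf3 was the only one of the 10 called with at least 2-fold fewer loops in both comparisons. Fndc3a, Cpped1 and Nsun7 had too few loops in CTR and IFNG to be compared without priming. Plekhg3, Cpped1, Sult4a1, Arhgap19 and Nsun7 had log2 ratios from -1.43 to -1.27, and the interval of Nsun7 included 0. With windows of 250 kb, Rabac1 (-0.75), Kat6b (-0.41), Sult4a1 (-0.68), Arhgap19 (-0.32) and Nsun7 (-0.32) missed 2-fold. With a pseudocount of 5 loops, Cpped1 (-0.99), Sult4a1 (-0.99) and Nsun7 (-0.92) did, and Sult4a1 also lost its call without bins that were empty in 1 list and full in another. Rrh, the gene of a retinal opsin, had 6 loops in CTR, 7 in IL4, 19 in preIL4, 14 in IFNG and 6 in preIL4IFNG (-1.50), opposite to its unprimed log2 ratio of 1.06.

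The calls of the primed comparison can be read beside the unprimed one, with which it shares no list. Of 102 genes with at least 2-fold more loops that could also be compared without priming, 92 had a ratio above 0 there and 50 passed 2-fold. Of 45 genes with at least 2-fold fewer loops, 32 were below 0 there and 11 passed 2-fold. Of all 9208 genes compared in both, 48.1% had a ratio above 0 there, 161 passed 2-fold upward and 87 downward. Across these genes, which share windows and anchors with their neighbours, Pearson's r of the log2 ratios was 0.42 and Spearman's rho 0.37. Only 2 genes passed 2-fold in opposite directions, Rrh and Pla2g12a, which lie in the same locus.

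**Figure D4:**
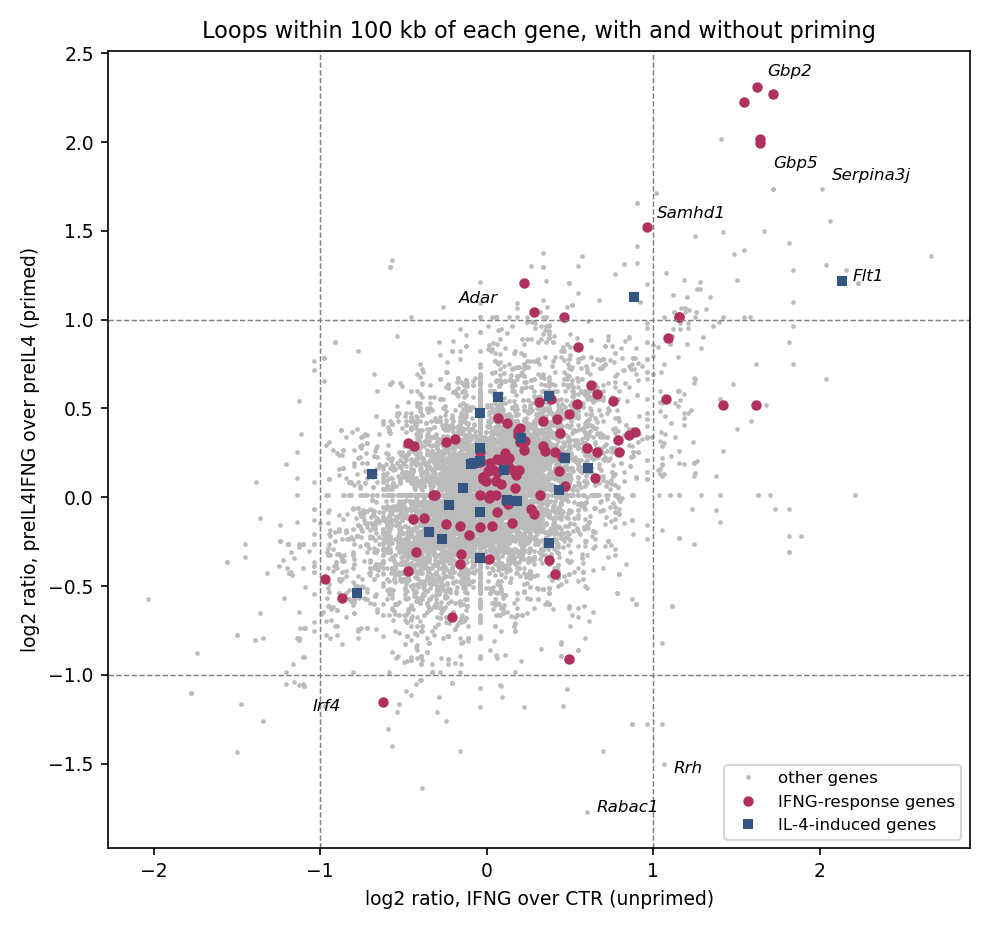
Log2 ratio of loops near each of 9208 genes in unprimed cells (IFNG over CTR, horizontal) and in primed cells (preIL4IFNG over preIL4, vertical). Grey points are other genes, red points IFNG-response genes and blue squares IL-4-induced genes, and dashed lines mark 2-fold. The Gbp genes lie highest in primed cells among those drawn, Irf4 lies below the lower line and Rrh and Rabac1 lie low in primed cells only.

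Loop by loop, 7633 loops of preIL4IFNG (11.4%, Wilson interval 11.2 to 11.6) had no loop in preIL4 with both anchors within 25 kb and are called gained. Conversely 7668 loops of preIL4 (11.3%, 11.1 to 11.6) were lost. Gained and lost loops were alike in kind, with a median of 21 contacts and a median span of 260 kb in both sets, against 32 contacts and 160 kb in the whole lists. Strength was the number of contacts over the median at the same span. With each list cut into 5 equal classes of strength, 19.1% of the weakest preIL4IFNG loops were gained and in the strongest 2.73%, and for lost loops the shares were 18.5% and 3.06%. Loops of 500 kb or more made up 27.2% of either set and 10.7% of the preIL4IFNG list. No TSS lay in either anchor bin for 76.8% of gained and 77.4% of lost loops.

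Gained loops lay near IFNG-response genes more often than lost loops did. An anchor within 100 kb of such a gene was held by 330 gained loops (4.32%, 3.89 to 4.80) and 194 lost loops (2.53%, 2.20 to 2.91), while the whole lists held 5.06% and 4.57%. Without priming the counts were 334 (4.68%) and 177 (2.76%). Thus both gained and lost loops were less frequent near these genes than loops of their whole list, by more than the intervals.

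The other lists also set gained and lost loops apart. Of gained loops 35.3% (34.2 to 36.3) were found in IFNG and 27.8% in CTR, and of lost loops 27.6% (26.6 to 28.6) were found in IFNG and 33.2% in CTR. Loops found in IFNG and not in CTR numbered 1471 of the gained (19.3%) and 930 of the lost (12.1%). Those found in CTR and not in IFNG numbered 901 (11.8%) and 1360 (17.7%). In no other list were 42.8% of gained and 43.7% of lost loops found.

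**Figure D5:**
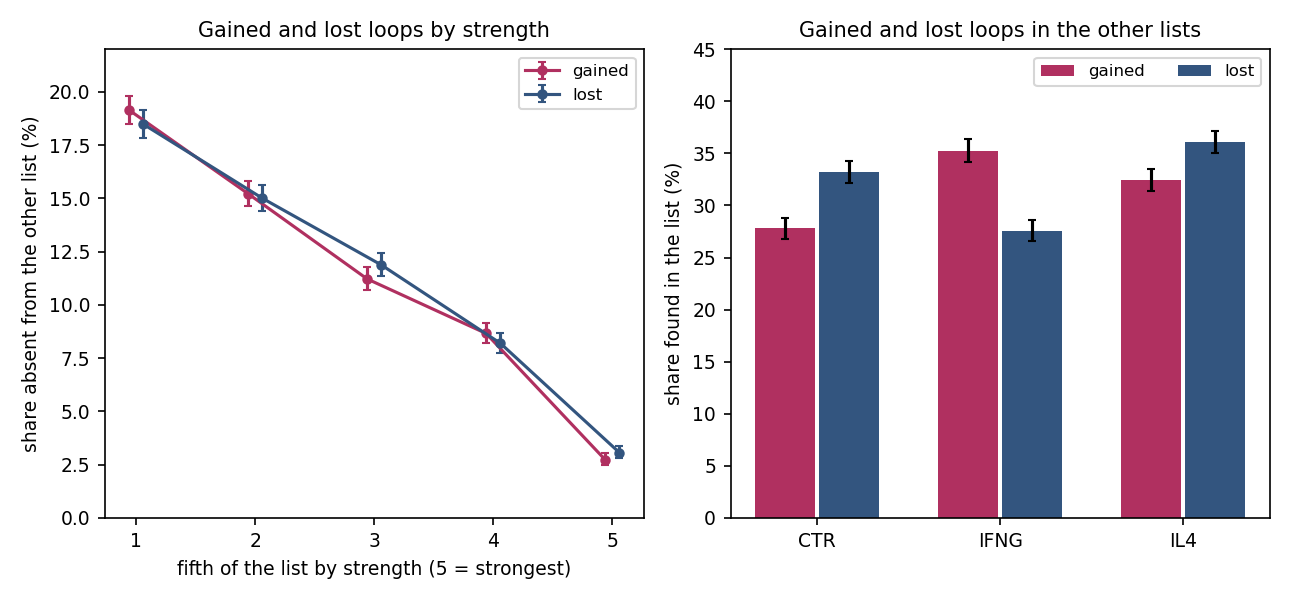
Left, share of the preIL4IFNG loops absent from preIL4 (gained) and of the preIL4 loops absent from preIL4IFNG (lost), in percent, by class of strength, 5 equal classes from weakest to strongest. Right, share of gained and lost loops found in the CTR, IFNG and IL4 lists, in percent, with bars from 0. Error bars are 95% Wilson intervals for counting error. Both curves drop from near 19% to near 3%, and gained loops are found more often in IFNG while lost loops are found more often in CTR.

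The 5 strongest gained loops, relative to other loops of their span, lay at Pmp22 on chromosome 11 (35 contacts in preIL4IFNG, and 22 to 25 in CTR, IL4 and IFNG), between the Lacc1 and Dnajc15 starts on chromosome 14 (21 contacts, and 12 in CTR), at Prkcb on chromosome 7, and in 2 gene-free bin pairs on chromosomes 13 and 4. Prkcb encodes a protein kinase C, and its loop (chr7:122460001-122470000 and chr7:122660001-122670000) held 37 contacts in IFNG and 51 in preIL4IFNG and was not called in the other lists. Of the 5 strongest lost loops, one joined the starts of Stxbp2 and Trappc5 (chr8:3630001-3640000 and chr8:3670001-3680000). It held 105 contacts in CTR, 95 in IL4 and 112 in preIL4 and was called at those bins in neither IFNG list, though IFNG had a loop of 61 contacts within 25 kb. The others lay at Cabin1 on chromosome 10, which was also in IFNG, in a gene-free pair on chromosome 17, between St3gal1 and Zfat on chromosome 15, which was also in IL4, and inside Frmd4a on chromosome 2.

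Near some IFNG-response genes, the gained loop with the most contacts was also in the list of unprimed IFNG cells. At Samhd1 it lay in the neighbouring Mroh8 gene (chr2:157210001-157230000), with 133 contacts in IFNG and 135 in preIL4IFNG, and near Irgm1 it lay in Gm5431 (chr11:48880001-48900000), with 106 and 105. Near Slfn2 it lay in Slfn8 (chr11:83000001-83020000), with 170 and 162. None of the 3 was called at those bins in CTR, IL4 or preIL4, though CTR had a loop of 113 contacts within 25 kb of the Slfn8 pair. Other such loops were called in preIL4IFNG only, among them one inside Wars (chr12:108860001-108880000) with 128 contacts, one from Cd86 to Ildr1 (chr16:36650001-36660000 and chr16:36710001-36720000) with 79 and one in Clec16a near Ciita (chr16:10570001-10580000 and chr16:10610001-10620000) with 69. Cd86 encodes a costimulatory ligand of T cells and had 5 loops in preIL4 and 10 in preIL4IFNG, too few to be compared.

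Contacts at loops present in both lists moved little. Over the 32334 bin pairs called in both, the median unscaled log2 ratio of contacts was -0.01, with quartiles of -0.18 and 0.14. In all, these pairs held 1535489 contacts in preIL4IFNG and 1556041 in preIL4. Of 10379 pairs with a mean of at least 50 contacts, 91 were at least 1.5-fold higher and 87 at least 1.5-fold lower in preIL4IFNG after scaling to these sums. The highest of these joined bins on chromosome 17 that overlap no protein-coding gene (chr17:29390001-29400000 and chr17:29430001-29440000), with 84 contacts in CTR, 93 in IL4, 82 in preIL4, 117 in IFNG and 147 in preIL4IFNG. Among the lowest were a loop from the Cd274 start, which encodes PD-L1, with 69 and 34 contacts (chr19:29360001-29370000 and chr19:29500001-29510000), a loop at the Fcgr4 start with 89 and 44, and one in Nlrc5 with 67 and 33. These pairs were chosen after their values were seen.

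CTCF, the factor that halts loop extrusion, binds a directional motif, and loops it anchors mostly carry motifs that point toward each other. A match to the core of the CTCF motif lay in 21.6% of all 10 kb bins and in 40.6% of the bins that were anchors in either primed list. Both anchors held a match in 17.8% (17.0 to 18.7) of gained loops, 17.1% (16.3 to 18.01) of lost loops and 26.7% (26.3 to 27.0) of loops found in both lists. Matches pointing toward each other were held by 8.67%, 8.15% and 13.99%, and those pointing away by 4.83%, 4.94% and 6.80%. Within spans of 20 to 190 kb the shares with a match at both anchors were 24.2%, 23.6% and 31.3%, so the lower shares among gained and lost loops were also seen at a like span. Gained and lost loops did not differ from each other beyond their intervals.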

How the data were processed

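Chromatin contacts were measured by Hi-C in macrophages of 5 groups with 2 replicates each. Per the labels and the study's methods, reads were processed with nf-core/hic, which runs HiC-Pro and Bowtie2, against mm10, and Juicer, HOMER and FastQC are also named. HICCUPS is named for loops at 25 kb. The caller and threshold of the 10 kb lists analysed here are not given in the sources used here. The loop lists deposited by the authors hold 1 list per group, with the counts of contacts per bin pair as whole numbers (column 8) and no replicate columns, so replicates appear to have been merged.

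Groups came from the labels. The lists held 53424 to 67728 loops and 2174945 to 2787117 contacts, and the minimum was 5 contacts. A loop was gained or lost when no loop of the other list had both anchors within 25 kb. Loops with an anchor within 100 kb of the TSS were counted for 21728 protein-coding genes (GENCODE M21, GRCm38) on 19 autosomes and X. Counts were scaled by the length of the list and then given a pseudocount of 1. Genes were compared where the mean was at least 10 loops and called at 2-fold. The mean was over the lists that form the ratio, so a high value in 1 list could carry a gene past it. Contacts at the shared bin pairs of a locus and at single shared pairs were scaled to the sum over all shared pairs. The median and quartiles over all shared pairs were not scaled. Ratios of loops and contacts have exact binomial intervals, single loops exact Poisson intervals and shares Wilson intervals, all of 95%. Those of loop ratios were computed without the pseudocount that the printed ratios include. They cover counting error only, as reads amplified by PCR are not independent molecules. With 1 list per group no test was made.

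Genes were named by a fixed rule: in each gene list the 4 highest and 2 lowest ratios among genes compared, the 10 highest and 10 lowest loci, the gained and lost loop with the most contacts near the named IFNG-response genes, and the 5 strongest gained and lost loops. Other genes, bins and loops named were chosen after their values were seen. Some items that the rule names are not reported here. The members and gene lists were chosen with earlier results of these data known. Promoters came from RefSeq (GRCm38.p6) and were searched by letters on both strands. Other windows, pseudocounts, filters, scalings, matching distances and merging of touching bin pairs were tried as alternatives. Scripts ran in Python 3.11.15 with scipy 1.17.1 for intervals, pandas 2.3.3 and numpy 2.4.6 for counting and matplotlib 3.10.9 for plots, and the counting was tested on simulated data.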

Additional observations from a re-analysis of the deposited data

Results flagged for a closer look

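Rrh and Pla2g12a, neighbours on chromosome 3 that share a window, passed 2-fold in opposite directions with and without priming. Near Rrh the log2 ratio was -1.50 in primed cells and 1.06 in unprimed cells, with 6 loops in CTR, 7 in IL4, 19 in preIL4, 14 in IFNG and 6 in preIL4IFNG. Near Pla2g12a, which encodes a secreted phospholipase, it was -1.28 and 1.05, with 7, 9, 21, 16 and 8 loops in the same order. The difference between the comparisons was not tested.

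The loop lists also held 1 bin pair of the mitochondrial genome, which no comparison used. It had 220 contacts in preIL4IFNG (exact Poisson interval 192 to 251), 155 in preIL4 (132 to 181), 163 in IFNG (139 to 190), 167 in IL4 (143 to 194) and 105 in CTR (85.9 to 127). Unscaled, the preIL4IFNG value lay above the intervals of the other 4 lists, though its own interval overlapped that of IL4. The lists differed in total contacts, with 2757773 in preIL4IFNG, 2787117 in preIL4, 2245331 in IFNG, 2416249 in IL4 and 2174945 in CTR. The contacts of this pair were not scaled to these totals, and the cause of the differences was not tested.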

How the results depend on the processing

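No paired analysis was possible because the 2 replicates of a group are merged in a single list, and for the same reason no replicate could be left out. Of 66 alternatives for 8 summary values, 48 stayed within their limits, 18 moved and none reversed. With only identical bins taken as matching, 34665 loops were gained and 35393 lost, with 50 kb in place of 25 kb 3385 and 3366, and with loops of at least 20 contacts 4168 and 4235, shifts that the stricter or looser matching and the smaller lists bring by construction. Genes with at least 2-fold more and fewer loops numbered 55 and 44 with windows of 25 kb (5315 genes compared), 49 and 15 with a pseudocount of 5, 1380 and 573 with no filter on loop number (21728 genes) and 43 and 24 after touching bin pairs were merged (4455 genes). With contacts summed in place of loops counted, 139 genes had at least 2-fold fewer and 212 at least 2-fold more, and the cause was not tested. The median log2 ratio of the IFNG-response genes was 0.27 with windows of 250 kb and 0.087 after merging. The unscaled median of contacts at shared bin pairs was -0.023 where pairs had at least 50 contacts on average. The cause of these shifts was not tested. For 35 named genes, 252 of 293 values kept their call, 41 fell short of 2-fold and none reversed, and 13 genes kept their call under every setting in which they could be compared. Dropping the filter on loop number kept all 35 calls, as it cannot change the ratio of a gene already compared. Leaving out the scaling also kept 35, as the primed lists are of nearly equal length. With windows of 25 kb 5 calls were kept and 2 fell short, and after merging 4 and 3. The other named genes could not be compared there. Removing bins that were empty in 1 list and held at least 8 loops in another, an alternative chosen after seeing the data, gave 143 and 84 genes, of which 142 and 76 were shared with the values above, and F10 then had at least 2-fold fewer loops. With 10 to 20 loops near a gene, intervals span more than 2-fold, so smaller differences were not detectable at this depth.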

Other observations

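Some bins were anchors of many loops in 1 list and of none in another. Between the primed lists 19 bins held no loop in one and at least 8 in the other, 11 of them empty in preIL4 and 8 empty in preIL4IFNG, and over the 5 lists there were 82 such bins, of which 59 were empty in CTR and 10 in preIL4IFNG. A bin at the start of Tmem95 (chr11:69870001-69880000) held 15 loops in preIL4IFNG and none in the other 4 lists, while its adjoining bins held 18 loops in preIL4 and 23 in preIL4IFNG. The bin of the Gbp3 start differed from it in that its adjoining bins also went from 0 to 9 loops. These bins were chosen after their values were seen, and no cause was tested.

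Fasl, which encodes the death ligand FasL, is in none of the gene lists described above. It had 17 loops in preIL4 and 45 in preIL4IFNG, with 10 bin pairs in both. Of the 35 pairs in preIL4IFNG alone of the pair, 15 were also in IFNG and 4 in CTR. It was chosen after its values were seen.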
